A study of Mus musculus with 6 samples.

Results

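The 10 genes described here are members of the PARP family and its closest partner: Parp1, Parp2, Parp3, Parp8, Parp9, Parp10, Parp11, Parp12 and Parp14, and Dtx3l, the ubiquitin ligase that pairs with Parp9. They were chosen by name, with earlier results of these data known. All 10 were among the 24965 genes of the deposited table and among the 13739 tested. RNA-seq was performed on donor cells sorted as hematopoietic stem and progenitor cells (HSPCs). These came from recipient mice at 6 h after bone marrow transplantation (BMT), in 3 libraries from WT donors and 3 from Hemgn-/- donors. The donor mice carried CD45.2 on a C57BL/6 background, and the Hemgn-/- allele was a germline change made with zinc finger nucleases, which every donor cell type therefore carried. In both groups bone marrow cells went into CD45.1 recipients that had received 9 Gy of irradiation in split doses, and the donor cells were sorted back out. The libraries did not look like a pure HSPC population, since Kit, which marks HSPCs, was at 5.50 to 7.24 FPKM (fragments per kilobase of exon, scaled to library depth) while Ngp, a neutrophil granule gene, was at 26488 to 46692 FPKM over the 6 libraries. The study's methods give young adult mice of both sexes with littermate controls, and the labels do not tie a library to an animal, so p-values measure the spread between these libraries.

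PARP proteins move ADP-ribose from NAD onto proteins and nucleic acids. Parp1, Parp2 and Parp3 bind DNA breaks, are switched on by them and call in the repair machinery. Most other members attach a lone ADP-ribose unit, and Parp9, Parp10, Parp11, Parp12, Parp14 and Dtx3l are known as genes that interferons induce, with roles in antiviral defence and in signalling through Stat proteins. The comparison asked whether these 6 interferon-inducible genes and the 3 DNA damage genes differed between Hemgn-/- and WT donor cells, and whether they differed alike. Parp8, a little studied mono-ADP-ribosyltransferase, was placed in neither group.

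Parp9 and Dtx3l were the members higher in Hemgn-/- libraries at an adjusted p under 0.05 (limma on log2(FPKM + 1), Benjamini-Hochberg over all genes tested). Of the 10 members 2 were called higher and 0 lower, while 4.37% of all genes tested were called higher and 2.09% lower. The mean FPKM of Dtx3l in Hemgn-/- cells was 1.49 times that in WT cells, and the mean of Parp9 was 1.37 times. Parp12 had a lower mean in Hemgn-/- cells, with overlapping groups, and the other 9 members had a higher one. In 8 of 10 members every Hemgn-/- library was above every WT library, a pattern found in 19.2% of all genes tested. At an unadjusted p under 0.05, 7 members were higher, against 15.0% of all genes tested (2057 genes). The median log2 fold change was 0.31 over the 10 members and 0.087 over all genes tested. In bulk RNA, a change in the share of a cell type and a change of RNA per cell cannot be told apart, and this holds for all values given here.

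Parp9, Dtx3l and Parp14 lie within one segment of chromosome 16, and the called pair is divergently arranged. In GENCODE M21 (GRCm38), Dtx3l occupies chr16:35926511-35939151 on the minus strand and Parp9 chr16:35938470-35972605 on the plus strand. Their 5′ ends overlap over 682 bases of the genome, and they share 458 exonic bases, which are 9.40% of the exon length of Parp9 and 8.0% of that of Dtx3l. Parp14 lies at chr16:35832874-35871544 on the minus strand, 54967 bases from Dtx3l. Whether the fragments were counted by strand is not given in the sources used here, so fragments from the shared exons could have been counted for either gene. The promoter sequence of Dtx3l is shown because both annotated Dtx3l starts and 4 of the 7 annotated Parp9 transcript starts fall inside it. The one of Parp11 is shown because it was the sole window of a member that held a motif searched for. They were taken from RefSeq on GRCm38.p6 and run from 250 bases before to 50 bases after the RefSeq start, with Dtx3l at chr16:35938978-35939277 on the minus strand and Parp11 at chr6:127446590-127446889 on the plus strand, and the capitals mark motif matches.

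Dtx3l: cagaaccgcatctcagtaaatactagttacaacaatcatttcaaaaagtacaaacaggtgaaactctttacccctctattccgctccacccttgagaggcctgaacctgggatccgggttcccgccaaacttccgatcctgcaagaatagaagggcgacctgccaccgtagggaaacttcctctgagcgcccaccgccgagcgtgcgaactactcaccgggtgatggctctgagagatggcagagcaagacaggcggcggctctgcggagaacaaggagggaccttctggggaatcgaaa

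Parp11: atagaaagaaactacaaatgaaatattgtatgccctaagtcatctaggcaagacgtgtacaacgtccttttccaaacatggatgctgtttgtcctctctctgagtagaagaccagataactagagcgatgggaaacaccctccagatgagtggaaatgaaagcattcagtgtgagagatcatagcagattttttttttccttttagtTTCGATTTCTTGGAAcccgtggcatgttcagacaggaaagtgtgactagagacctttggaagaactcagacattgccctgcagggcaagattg

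In the Parp11 window, the letters TTCNNTTTC, the core of the interferon-stimulated response element, matched as TTCGATTTC from 43 bases before the start. The letters TTCNNNGAA, the core of the gamma-activated sequence, matched as TTCTTGGAA from 37 bases before it and overlapped the first match by 3 bases. Both motifs were searched on both strands. The table held windows for 7 of the 10 members, and Parp9, Parp10 and Parp14 were not among them. The windows of Parp1, Parp2, Parp3, Parp8, Parp12 and Dtx3l and the other window of Parp11 held neither set of letters. The Dtx3l window was set on the RefSeq start, and both GENCODE starts of Dtx3l lie upstream of that start. It therefore reached less far upstream of the GENCODE starts. Parp9 runs on the other strand, so most of this window lies downstream of the Parp9 starts inside it. Sequence further upstream of either gene was not searched. Of 32851 mouse promoter windows of the same length, 8.56% held the first motif, 8.30% the second and 15.8% either. Parp11 itself did not pass the test.

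**Figure D1:**
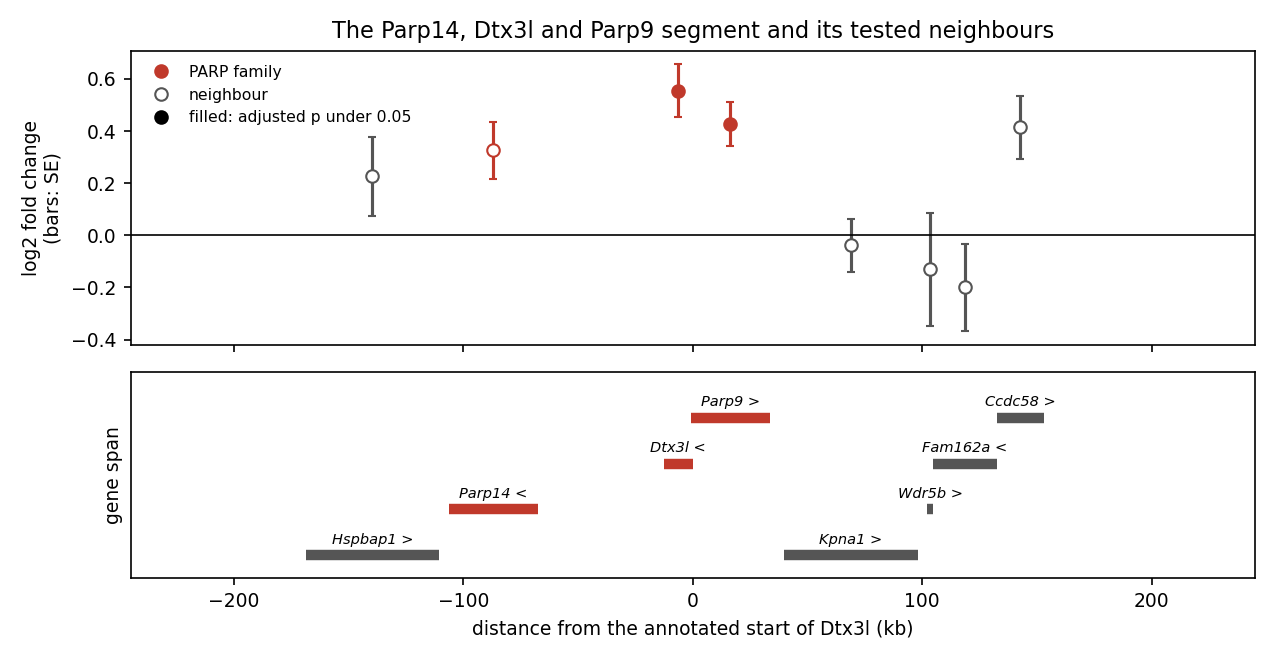
Upper panel, log2 fold change of FPKM + 1 (Hemgn-/- minus WT, bars are SE) of Parp14, Dtx3l, Parp9 and 5 tested neighbours against the distance from the annotated start of Dtx3l in kb. Lower panel, the gene spans, with > and < for the plus and the minus strand. Dtx3l and Parp9, the filled points, meet at 0 kb, and the neighbours lie between -0.20 and 0.41.

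Both genes of the pair rose. Dtx3l, an E3 ligase that ubiquitinates histones and other proteins, had 18.6, 22.0 and 18.3 FPKM in WT replicates 1, 2 and 3 and 27.6, 28.6 and 31.6 FPKM in Hemgn-/- replicates 1, 2 and 3. The lowest Hemgn-/- library was above the highest WT library. The log2 fold change was 0.56 (SE 0.10, 95% interval 0.32 to 0.79, limma adjusted p = 0.015). Parp9, a macrodomain protein with little catalytic activity of its own that binds Dtx3l, had 17.0, 16.7 and 15.6 FPKM in WT and 21.7, 23.3 and 22.4 FPKM in Hemgn-/- libraries. Its groups were tight and well separated, with means of 16.5 ± 0.73 and 22.5 ± 0.83 FPKM (SD, n = 3), and the log2 fold change was 0.43 (SE 0.084, 95% interval 0.24 to 0.62, limma adjusted p = 0.021). The ratio of Dtx3l to Parp9 FPKM was 1.19 ± 0.11 in WT and 1.30 ± 0.098 in Hemgn-/- libraries (SD, n = 3), and its ranges overlapped. Both calls were lost under some alternatives: no member was called when WT replicate 1, WT replicate 3 or Hemgn-/- replicate 3 was left out or when the variance was fitted without a trend. Parp9 was also not called without Hemgn-/- replicate 2. With a library left out the adjusted p reached 0.087 for Parp9 and 0.074 for Dtx3l, while the log2 fold changes over all leave-one-out fits stayed between 0.39 and 0.45 and between 0.50 and 0.64. Under median-ratio scaling Dtx3l was called (log2 fold change 0.46, adjusted p = 0.036) and Parp9 was not (0.33, adjusted p = 0.061).

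Among the protein-coding genes within 200 kb of the Dtx3l start, 5 besides the 3 members were tested, and 0 were called. Over all genes tested 4.37% were called higher and 2.09% lower. These 5 neighbours had log2 fold changes from -0.20 to 0.41, 2 above 0 and 3 below, with a lowest limma adjusted p of 0.086. That p and the highest value belonged to Ccdc58, whose groups were apart with Hemgn-/- higher (0.41, SE 0.12). Its log2 fold change was near that of Parp9 (0.43) and above that of Parp14 (0.33). Kpna1, the next gene beyond Parp9, had a log2 fold change of -0.04 (SE 0.10, limma adjusted p = 0.87).

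The other interferon-inducible members did not pass the test. Parp10, Parp11 and Parp14 were higher in Hemgn-/- libraries, with log2 fold changes of 0.46, 0.43 and 0.33, and Parp12 had a lower mean. The value of Parp14 was close to those of the DNA damage members Parp1 and Parp2, both 0.30. Parp10, a mono-ADP-ribosyltransferase that was the most highly expressed member, had 37.2, 34.9 and 27.8 FPKM in WT and 41.2, 47.7 and 49.1 FPKM in Hemgn-/- libraries. The groups did not overlap, and WT replicate 3 lay below the rest of its group. The log2 fold change was 0.46 (SE 0.12, 95% interval 0.19 to 0.73, limma adjusted p = 0.061), and Parp10 was called when the libraries were rescaled to the same FPKM total and by voom on recovered fragments. Of its exon length 4.80% is shared with Plec on the same strand, which fragments cannot tell apart there.

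Parp14 carries macrodomains as well as a catalytic domain and is known as a coactivator of Stat6. It had 10.9, 9.44 and 8.55 FPKM in WT and 12.6, 12.3 and 12.0 FPKM in Hemgn-/- libraries. All 3 Hemgn-/- values were above the WT values and closer together than these. The log2 fold change was 0.33 (SE 0.11, 95% interval 0.077 to 0.58, limma adjusted p = 0.13). Parp11, a mono-ADP-ribosyltransferase, had 2.53, 2.26 and 2.78 FPKM in WT and 4.03, 3.88 and 3.34 FPKM in Hemgn-/- libraries. The groups did not overlap, and the ratio of means, 1.49, was as high as that of Dtx3l. After adding 1 to each FPKM, which shrinks the fold change of a gene at this level, the difference was 0.43 (SE 0.13, 95% interval 0.12 to 0.74, limma adjusted p = 0.11).

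Parp12, a zinc finger mono-ADP-ribosyltransferase, went against the other 5. It had 2.454, 5.291 and 4.001 FPKM in WT and 3.357, 3.184 and 3.352 FPKM in Hemgn-/- libraries. The Hemgn-/- values were nearly equal and lay inside the wide WT range. These values rested on 232 to 541 fragments per WT library and 333 to 387 per Hemgn-/- library. The log2 fold change was -0.15 (SE 0.21, 95% interval -0.62 to 0.32, limma adjusted p = 0.72), an interval that includes the fold changes of all 3 DNA damage members. Without WT replicate 2 it was 0.05 and without WT replicate 1 it was -0.38.

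**Figure D2:**
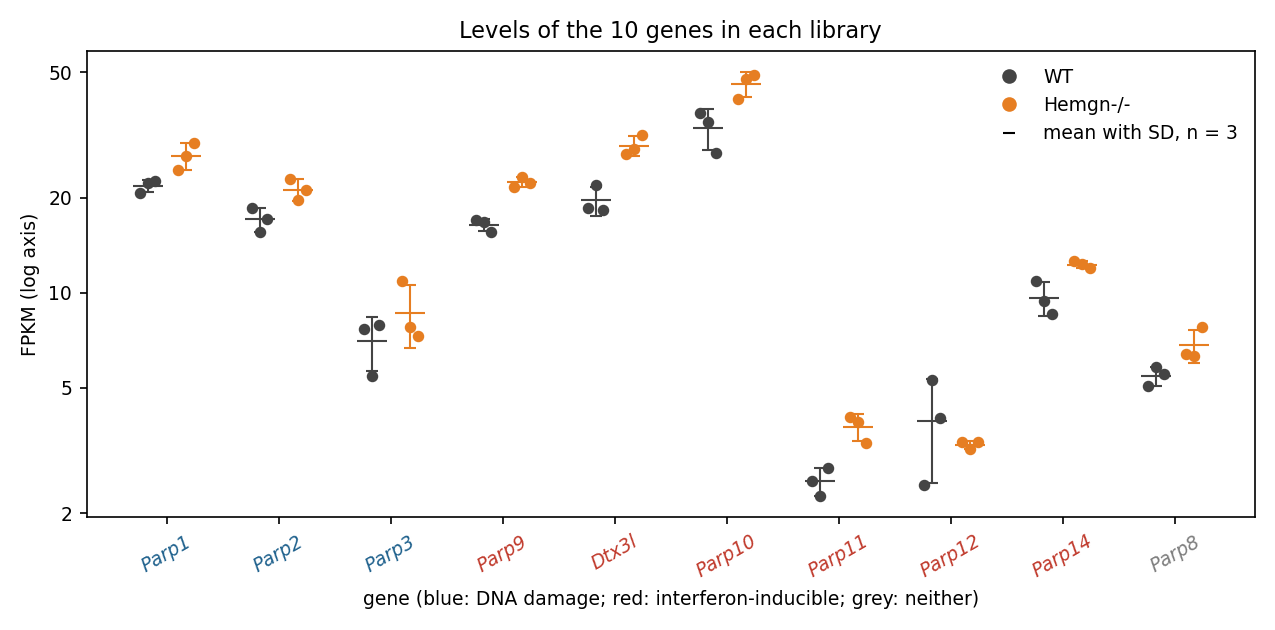
FPKM on a log axis of the 10 genes in each of the 3 WT and 3 Hemgn-/- libraries, with the mean and SD of each group. The groups overlap for Parp3 and Parp12 and are apart for the other 8 genes, from Parp11 near 3 FPKM to Parp10 above 27 FPKM.

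The 3 DNA damage members had higher means in Hemgn-/- libraries and none passed the test. Parp1, the main sensor of DNA breaks and the source of most poly(ADP-ribose), had 20.8, 22.2 and 22.6 FPKM in WT and 24.6, 27.2 and 29.9 FPKM in Hemgn-/- libraries. The groups did not overlap. The log2 fold change was 0.30 (SE 0.095, 95% interval 0.085 to 0.52, limma adjusted p = 0.11), with a call only under rescaling to the same FPKM total (0.39, adjusted p = 0.038). Parp2, a break-activated polymerase that shares substrates with Parp1, had 18.6, 15.6 and 17.2 FPKM in WT and 22.9, 19.6 and 21.1 FPKM in Hemgn-/- libraries. These groups were also apart, with a log2 fold change of 0.30 (SE 0.10, 95% interval 0.067 to 0.53, limma adjusted p = 0.13).

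Parp3, which acts at DNA ends during end joining, had 7.65, 5.45 and 7.92 FPKM in WT and 10.9, 7.77 and 7.30 FPKM in Hemgn-/- libraries. The groups overlapped, and Hemgn-/- replicate 1 alone stood above all WT values. The log2 fold change was 0.27 (SE 0.18, 95% interval -0.14 to 0.67, limma adjusted p = 0.44), and it was 0.11 without Hemgn-/- replicate 1 and 0.12 without WT replicate 2. Parp8 had 5.05, 5.80 and 5.51 FPKM in WT and 6.38, 6.29 and 7.77 FPKM in Hemgn-/- libraries. Its groups did not overlap, and the log2 fold change was 0.27 (SE 0.12, 95% interval -0.0027 to 0.55, limma adjusted p = 0.24).

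**Figure D3:**
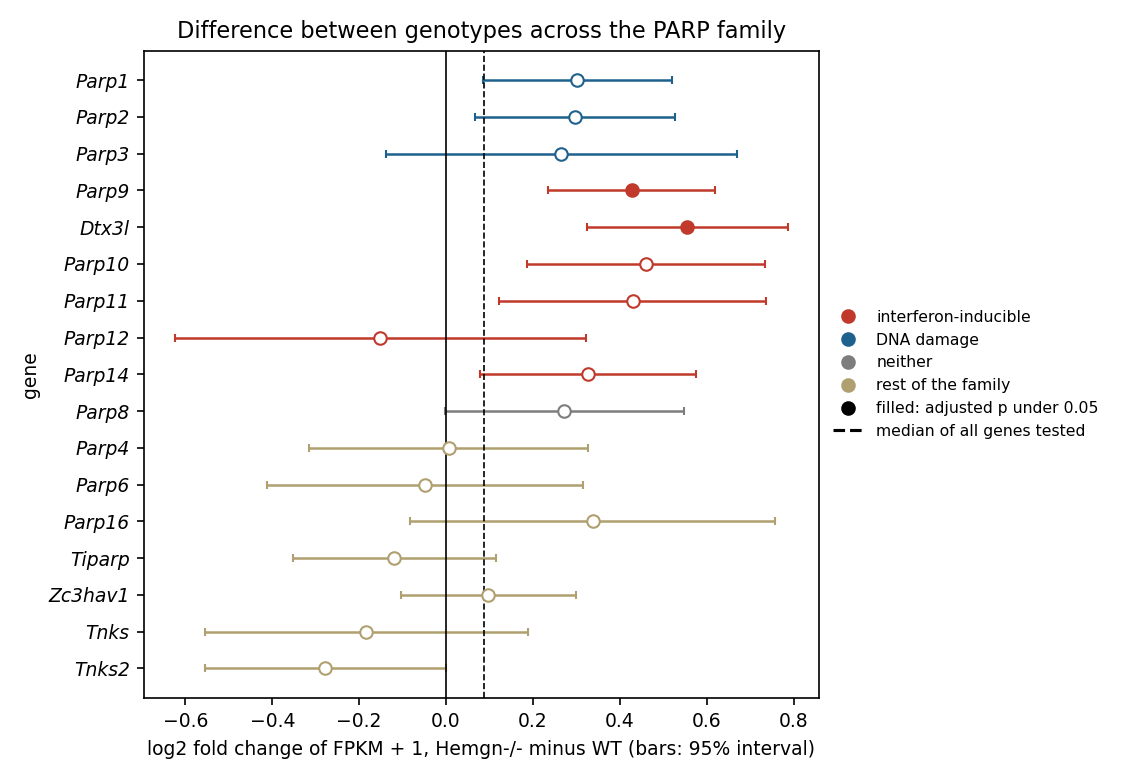
Log2 fold change of FPKM + 1, Hemgn-/- minus WT, with 95% intervals, of the 10 genes and of the 7 other ADP-ribosyltransferase genes. Parp9 and Dtx3l are the filled points, and the intervals of the interferon-inducible and DNA damage genes overlap, with medians of 0.43 and 0.30 beside a dashed line at 0.087 for all genes tested.

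The interferon-inducible and DNA damage members were then compared within each library. The median log2 fold change was 0.43 over the 6 interferon-inducible members, of which 2 were called and 5 had groups apart. It was 0.30 over the 3 DNA damage members, of which 0 were called and 2 had groups apart. Over all genes tested 4.37% were called higher, and 19.2% had groups apart with Hemgn-/- higher. The mean log2(FPKM + 1) of the interferon-inducible members was 3.51 ± 0.079 in WT and 3.85 ± 0.020 in Hemgn-/- libraries (SD, n = 3). The mean of the DNA damage members was 3.89 ± 0.12 in WT and 4.18 ± 0.088 in Hemgn-/- libraries, so both groups of genes were at a higher level in all 3 Hemgn-/- libraries than in any WT library. The interferon-inducible mean minus the DNA damage mean was -0.47, -0.16 and -0.52 in WT and -0.45, -0.24 and -0.30 in Hemgn-/- libraries. These values overlapped, and their means differed by 0.053 between genotypes, less than the SD of 0.16 within them. With WT replicate 1, 2 or 3 left out the difference was 0.011, 0.16 or -0.016, and with Hemgn-/- replicate 1, 2 or 3 left out it was 0.11, 0.0091 or 0.037, so 1 library decided its size and sign. Leaving out Parp12, a choice made after its values were seen, raised this difference to 0.15, with overlapping values still. The difference in response between both groups of genes was described over 3 libraries a genotype and was not tested.

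Single pairs of genes gave a finer comparison. The ratio of Dtx3l to Parp1 FPKM was 0.895, 0.992 and 0.809 in WT and 1.12, 1.05 and 1.06 in Hemgn-/- libraries. This ratio was higher in every Hemgn-/- library, although an exact two-sided permutation test of 3 against 3 libraries cannot go below p = 0.10. The ratio of Parp9 to Parp1 was 0.75 ± 0.063 in WT and 0.83 ± 0.072 in Hemgn-/- libraries, and that of Parp14 to Parp1 was 0.44 ± 0.075 and 0.45 ± 0.057 (SD, n = 3). Both had overlapping ranges. The 3 ratios were chosen after the members' values were known.

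**Figure D4:**
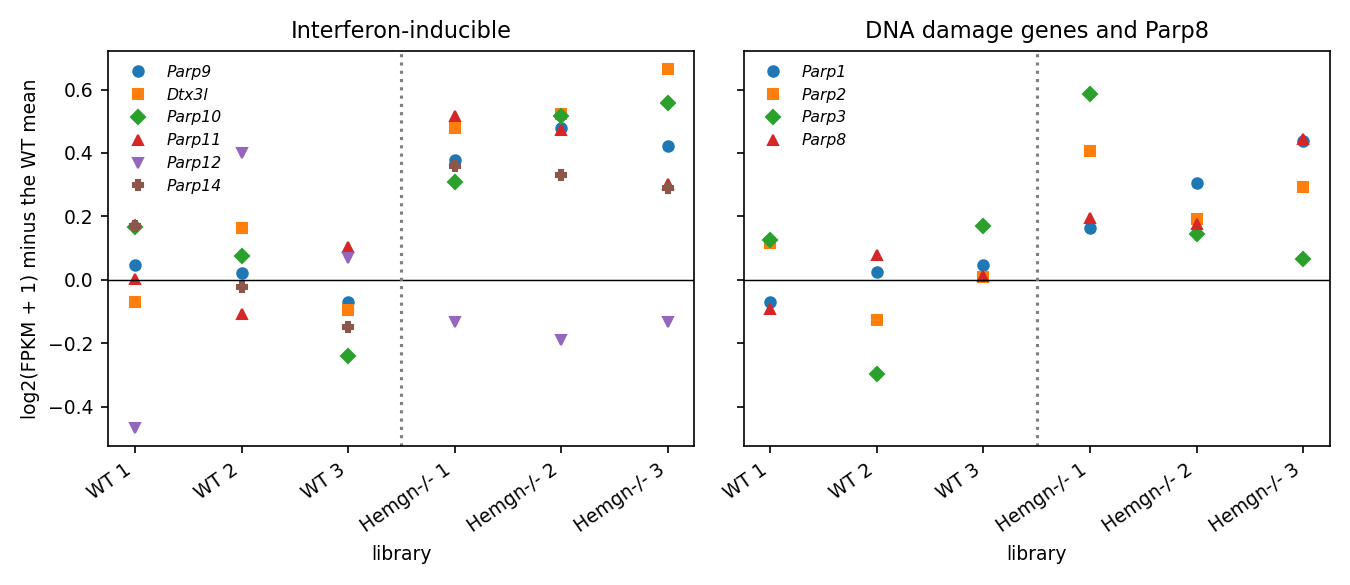
Log2(FPKM + 1) of each gene minus its WT mean in the 6 libraries, the interferon-inducible genes on the left and the DNA damage genes with Parp8 on the right. On the left all genes but Parp12 lie above the WT mean by about 0.3 or more in the Hemgn-/- libraries, and on the right the Hemgn-/- values also lie above 0, with Parp3 high in Hemgn-/- replicate 1.

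FPKM is per joined length of all annotated exons of a gene, not per length of the transcript expressed. The order of levels between genes is therefore approximate. In WT libraries Parp10 was highest at 33.3 ± 4.9 FPKM (SD, n = 3), and its values were all above those of Parp1 at 21.9 ± 0.96 FPKM. Parp1, Dtx3l, Parp2 and Parp9 followed between 16.5 and 21.9 FPKM, and neighbours in that order overlapped. Parp14 at 9.64 ± 1.2 FPKM lay apart from Parp9 above it and from Parp3 below it. Parp3, Parp8, Parp12 and Parp11 came last, from 7.01 to 2.52 FPKM, and each neighbour overlapped the next. In Hemgn-/- libraries the order of means was led by Parp10 (46.0 FPKM). There Dtx3l (29.3 FPKM) stood above Parp1 (27.2 FPKM), with overlapping values, and above Parp2 (21.2 FPKM), with values apart.

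Of the 7 other ADP-ribosyltransferase genes tested, 0 were called, 1 had groups apart with Hemgn-/- lower and the median log2 fold change was -0.05. Of all 13739 genes tested, 4.37% were called higher and 2.09% lower, and 1124 had groups apart with Hemgn-/- lower. The interferon-inducible and DNA damage groups were drawn from the members alone. These 7 genes were not sorted by whether interferons induce them. Zc3hav1, the catalytically inactive antiviral member that binds viral RNA, had 41.5, 38.3 and 41.5 FPKM in WT and 46.4, 45.0 and 39.0 FPKM in Hemgn-/- libraries, with a log2 fold change of 0.10 (SE 0.089, limma adjusted p = 0.57) that was -0.0025 under median-ratio scaling. Tiparp, a mono-ADP-ribosyltransferase induced by the aryl hydrocarbon receptor, had means of 39.9 ± 4.3 and 36.6 ± 3.0 FPKM in WT and Hemgn-/- libraries (SD, n = 3, limma adjusted p = 0.55). Tnks2, a tankyrase that acts in telomere and Wnt regulation, was the sole member of this list with groups apart, with a mean of 4.02 ± 0.19 FPKM in WT against 3.14 ± 0.24 FPKM in Hemgn-/- libraries, and it did not pass the test (log2 fold change -0.28, limma adjusted p = 0.23). Among the 4 other Deltex genes, relatives of Dtx3l, 0 were called, and the median was 0.12.

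Genes that supply NAD, remove ADP-ribose or work beside Parp1 in repair were read from the same fit, in which 4.37% of all genes were called higher and 2.09% lower. Of 14 genes of NAD supply and use 1 was called higher: Nampt, the rate-limiting enzyme of NAD salvage, with 15.7, 15.9 and 13.2 FPKM in WT and 23.3, 22.4 and 21.4 FPKM in Hemgn-/- libraries. Its groups were well apart, and the log2 fold change was 0.56 (SE 0.099, 95% interval 0.33 to 0.78, limma adjusted p = 0.014). The call was lost without Hemgn-/- replicate 3 (adjusted p = 0.051) and without a trend (0.058). The median of that list was 0.12. Of 12 genes that remove or read ADP-ribose, 1 was called higher, Adprhl2, which takes ADP-ribose off serine (log2 fold change 0.51, limma adjusted p = 0.047). That call held under 2 of 15 alternatives and was lost whichever library was left out, with an adjusted p from 0.074 to 0.17. Parg, which cuts poly(ADP-ribose) chains, had 9.04 ± 1.5 FPKM in WT and 7.11 ± 1.0 FPKM in Hemgn-/- libraries (SD, n = 3), a log2 fold change of -0.31 that did not pass the test (95% interval -0.64 to 0.02, limma adjusted p = 0.27).

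Of 14 genes of single-strand break and base excision repair, 1 was called higher, Ung, the uracil glycosylase, with a mean of 3.74 ± 0.31 FPKM in WT against 6.00 ± 0.63 FPKM in Hemgn-/- libraries (SD, n = 3, limma adjusted p = 0.034). The Ung call held under 5 of 15 alternatives and, of the fits with a library left out, in the one without Hemgn-/- replicate 1 alone, where the adjusted p was 0.044 against up to 0.13 in the others. Hpf1, the partner that turns Parp1 and Parp2 toward serine, had a log2 fold change of -0.13 (limma adjusted p = 0.66), and Xrcc1, the scaffold recruited by poly(ADP-ribose), one of -0.02 (limma adjusted p = 0.92). Of 11 genes of end joining, 0 were called higher and 1 lower, Nhej1, a factor that aligns DNA ends, with a mean of 17.4 ± 1.1 FPKM in WT against 10.7 ± 1.9 FPKM in Hemgn-/- libraries (log2 fold change -0.67, limma adjusted p = 0.021). The Nhej1 call held under 9 of 15 alternatives and was lost without WT replicate 1 or 2 or Hemgn-/- replicate 2 or 3, with an adjusted p of up to 0.076. The medians of both repair lists, 0.01 and 0.02, were below the 0.087 of all genes tested.

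Among the receptors and transducers that act upstream of the interferon-inducible members, 3 of 16 genes were called higher and 0 lower, with a median of 0.26 and groups apart, with Hemgn-/- higher, in 12. Over all genes tested 4.37% were called higher, 19.2% had groups apart in that direction and the median was 0.087. Irf1, a transcription factor induced by interferons, had 52.1, 52.0 and 42.6 FPKM in WT and 76.9, 82.7 and 88.3 FPKM in Hemgn-/- libraries, and its log2 fold change of 0.75 (SE 0.10, limma adjusted p = 0.0038) was the largest of the list. The receptor chains Ifngr2 and Ifnar1 both had log2 fold changes of 0.45 (limma adjusted p = 0.016 and 0.033). These values are RNA at 6 h. The study reports that interferon gamma receptors were unaffected, as protein measured by flow cytometry on donor cells at a later time after BMT. The call of Ifngr2 was lost without WT replicate 3, Hemgn-/- replicate 2 or Hemgn-/- replicate 3 (adjusted p up to 0.082) and without a trend. The call of Ifnar1 held under 5 of 15 alternatives and, with a library left out, only without WT replicate 2 (adjusted p = 0.029, against up to 0.10 in the other 5 fits), while that of Irf1 held under all 15. Stat2 (0.40, limma adjusted p = 0.17) and Stat6 (0.26, limma adjusted p = 0.064), the partner of Parp14, had groups apart and were not called.

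Across the 6 libraries, the genes most like Parp9 by Pearson r of log2(FPKM + 1), among 6292 genes with a mean of at least 5 FPKM, were Rasa3, Cd22 and Tifab (r = 0.998, 0.998 and 0.997). Dtx3l came at rank 303 with r = 0.94, ahead of Parp10 at rank 422 and Parp14 at rank 538. The genes most like Parp14 were Sf3b3, Gsdmd and Net1, with Parp9 at rank 218 (r = 0.91). The genes most like Parp1 were Fam111a, Tmem33 and Dhrs7b, with Parp8 at rank 61 (r = 0.94) and Dtx3l at rank 137 (r = 0.91). These values describe 6 libraries that share a genotype difference, and many genes reach such an r.

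The libraries held 23668015 to 28897360 fragments, and over all genes 600 were called higher and 287 lower. That split was 342 to 387 under median-ratio scaling, 368 to 346 under quantile normalization and 1062 to 238 when rescaled to the same FPKM total. Hemgn had 5.64, 2.96 and 4.68 FPKM in WT and 0.75, 0.91 and 1.60 FPKM in Hemgn-/- libraries (log2 fold change -1.37, limma adjusted p = 0.011). Summed erythroid markers, given below, were also lower in Hemgn-/- libraries. The cause of the lower Hemgn value and of the remaining Hemgn RNA was not tested. The labels name the sorted cells Lin-Sca-1+, and the design text adds c-Kit+. The 10 neutrophil markers summed to 74905 to 80731 FPKM in WT and 48926 to 54223 in Hemgn-/- libraries, and 5 of 10 were called lower. Summed B cell markers were 1165 to 1226 and 1384 to 1558 FPKM, with 3 of 8 called higher, T and NK cell markers 142 to 153 and 172 to 202 FPKM, with 3 of 8 called higher, and macrophage and monocyte markers 178 to 179 and 188 to 195 FPKM, with 3 of 9 called higher and 1 lower. Summed plasmacytoid dendritic cell markers were 148 to 175 and 165 to 202 FPKM, with 2 of 7 called higher and Cd209d at 0 in a WT library, and erythroid markers 451 to 536 and 27.7 to 43.3 FPKM, with 3 of 6 called lower. Eosinophil and basophil markers had 3 of 8 called lower, endothelial markers 0 of 5 called, and HSPC markers 2 of 10 called higher, Cd34 and Cd48. Summed HSPC markers were 43.8 to 48.2 FPKM in WT and 53.2 to 62.1 FPKM in Hemgn-/- libraries. Groups were apart with Hemgn-/- higher in 5 of the 10 tested and lower in 1. Over all 13739 genes tested, groups were apart with Hemgn-/- higher in 2634 and lower in 1124. Of the HSPC markers 6 had a log2 fold change above 0 and 4 below. Kit was among those below and was not called, with 6.14, 6.36 and 7.24 FPKM in WT and 5.50, 5.90 and 5.65 FPKM in Hemgn-/- libraries. The part of these markers in the values of the PARP genes was not tested.

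**Figure D5:**
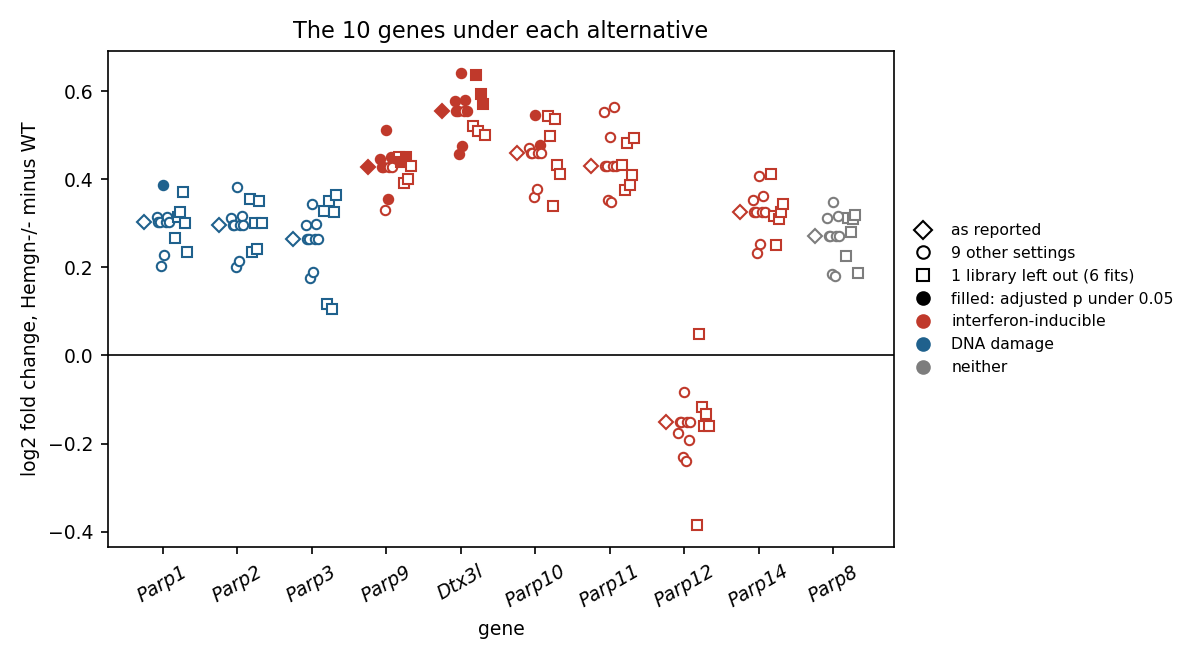
Log2 fold change of the 10 genes as reported (diamonds), under 9 other settings (circles) and with 1 library left out (squares), filled where the adjusted p is under 0.05. Dtx3l stays between 0.46 and 0.64 and Parp9 between 0.33 and 0.51, and Parp12 is the only gene with a value on the other side of 0.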

How the data were processed

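The members, their grouping and the gene lists were chosen with earlier results of these data known. The authors deposited FPKM values per gene, and the submitters' processing notes name HISAT2 2.1.0, Bowtie2 2.2.3, TopHat2, HTSeq 0.6.0 and the GRCm38 build, with no role for each. Columns were matched to samples by genotype letter and number, and 0 columns of per-sample values were left out. The design text and the labels disagree about c-Kit in the sort, the route of injection and the kit (Smart-Seq2 or TruSeq).

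Of 24965 genes, 24921 matched GENCODE M21 (GRCm38) by Ensembl identifier and 44 did not. The depth came from the step size of low values: 95.2% of 13472 genes with at most 100 fragments came out whole within 0.01 in all 6 libraries, and 1 fragment on 1 kb of exon was worth 0.0346 to 0.0423 FPKM. Replicates differed by more than counting error, so none was a copy of another.

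Genes above 1 FPKM in at least 1 library (13739) were compared on log2(FPKM + 1) by a moderated linear model (limma 3.58.1 under R 4.3.3, variance trend in eBayes), two-sided, Benjamini-Hochberg over all of them, with 95% intervals not adjusted over genes. The fit was tested on simulated counts with the same spread setting for all genes and no shift between cell types. That test therefore does not bear on how the libraries are scaled. The text names the 10 members, Hemgn, genes of the pathway lists called at an adjusted p under 0.05 (up to 5 per list), partners fixed by name (Hpf1, Xrcc1, Parg, Zc3hav1, Tiparp, Stat2, Stat6, Irf1 and Nampt), and the 3 genes most like Parp9, Parp14 and Parp1. A planned result is not reported here. Tnks2, Kpna1, Ccdc58 and the marker genes were named after their values were seen. As 15 alternatives, the fit was repeated with a pseudocount of 0.1, all genes above 0, a mean of at least 1 FPKM, 3 other scalings, eBayes without a trend, voom on recovered fragments, the replicate number as a block and leaving out each of the 6 libraries.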

Additional observations from a re-analysis of the deposited data

How the results depend on the processing

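Of the 10 members, 9 had a log2 fold change above 0 under all 15 alternatives, and Parp12 changed sign without WT replicate 2 (0.048, against -0.38 without WT replicate 1). Among the partner genes near 0, Xrcc1 turned above 0 under the same FPKM total (0.054) and without WT replicate 3 or Hemgn-/- replicate 1 (0.0044 and 0.034, leave-one-out range -0.068 to 0.034), Hpf1 without Hemgn-/- replicate 1 (range -0.28 to 0.021), and Zc3hav1 below 0 under median-ratio scaling (-0.0025). The number of members called was 1 under median-ratio scaling and under the replicate block, 0 without a trend, 4 when rescaled to the same FPKM total and 0 to 2 over the leave-one-out fits. Parp9 had an adjusted p above 0.05 under median-ratio scaling (log2 fold change 0.33), without a trend and under the block (both 0.43, adjusted p = 0.072 and 0.056), and its leave-one-out values ran from 0.39 to 0.45. Dtx3l lost its call without a trend (0.56, adjusted p = 0.065), with leave-one-out values from 0.50 to 0.64. The interferon-inducible minus DNA damage difference ran from -0.016 to 0.16 over the leave-one-out fits and stayed between 0.049 and 0.065 under the other alternatives. Calls were gained by Parp1 (0.39) and Parp10 (0.55) under the same FPKM total and by Parp10 (0.48) under voom.

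Over all genes, 600 higher and 287 lower calls became 309 and 157 with all genes above 0, 237 and 153 without a trend, 410 and 226 under the replicate block, and 223 to 451 and 150 to 237 over the leave-one-out fits. The higher calls were 342 under median-ratio scaling, 368 under quantile normalization and 1062 under the same FPKM total. The 7 calls in the 82 genes of the pathway lists became 3 with all genes above 0, 4 under median-ratio scaling, quantile normalization and the block, 13 under the same FPKM total, 1 without a trend and 1 to 5 with a library left out. Same-numbered libraries did not deviate together (correlations -0.043, -0.0094 and 0.011), so the numbers were taken as names only. The cause of these changes was not tested.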
